A study of Mus musculus with 12 samples.

Results

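The circadian clock genes described here are 10 of the 21930 genes in the deposited count table: Clock, Npas2, Per1, Per2, Per3, Cry1, Cry2, Nr1d1, Nr1d2 and Dbp. They were chosen by gene symbol, and each symbol matched 1 row. The 12 libraries came from wild-type male C57BL/6J mice, 3 in each of 4 groups. AL + PBS mice ate ad libitum (AL) and received PBS, IF + PBS mice were fasted on alternate days (intermittent fasting, IF) and received PBS, and the AL + NaIO3 and IF + NaIO3 groups had the same diets and sodium iodate, an oxidant that damages the retinal pigment epithelium (RPE). The diets began at 8 weeks of age and ran for 12 weeks, each fast lasted 24 h under a 12 h light phase, food was taken away 1.5 h before dark, and 25 mg/kg NaIO3 or an equal volume of PBS was injected once into the abdomen 7 days before the tissue was taken, with the diets kept up. The hour of tissue collection, and whether it followed a fed or a fasted day, are not given in the sources used here, so a difference in level and a difference in the phase of a rhythm cannot be told apart.

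The clock is a loop of transcription and repression that runs in nearly every cell. CLOCK, or its close relative NPAS2, pairs with BMAL1 (gene Arntl) and switches on the Period, Cryptochrome, REV-ERB (Nr1d1, Nr1d2) and Dbp genes. PER and CRY proteins then hold the pair back, and the REV-ERB receptors repress Arntl. The retina has clocks of its own that are set by light, while feeding time is a strong signal to the clocks of many other organs, and the transcripts of most of these genes rise and fall over the day.

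Each library held between 26364665 and 43046950 gene counts. All 10 clock genes passed the filter on low counts, as did 15970 of the 21930 genes in the fit of all libraries. The labels call the tissue the RPE/choroid/sclera complex and the methods call it eye cup. The summed level of 8 rod photoreceptor markers was 18320 to 60500 CPM (counts scaled to library size, TMM-normalised) in the 12 libraries, against 1037 to 2776 CPM for 8 RPE markers, so neural retina was present in every library. AL + NaIO3 replicate 3 stood apart, with 18320 CPM of rod markers, 1349 CPM of 6 stroma markers (64.7 to 216 in the other 11 libraries) and 214 CPM of 6 macrophage and microglia markers. It also held 2008 CPM of 5 melanocyte and pigment markers, against 118.7 to 322.5 CPM in the other 11 libraries. AL + NaIO3 replicate 2 stood apart in 5 cornea markers, at 594 CPM against 8.83 to 166 CPM in the other 11 libraries. The macrophage and microglia markers were higher in all 3 AL + NaIO3 libraries, at 80.3, 113 and 214 CPM against 34.4 to 48.4 CPM in the 9 libraries of the other groups, and the RPE markers were at 1037 to 1277 CPM there against 2012 to 2173 CPM in AL + PBS. In such bulk tissue, fewer cells of a type and less RNA per cell cannot be told apart. Libraries also differed in the levels of genes of high against low GC content. The median deviation in log2 CPM was compared between the 20% of genes highest and the 20% lowest in GC content. This gap ran from -0.30 (IF + NaIO3 replicate 2) to 0.45 (IF + PBS replicate 2). Whether it came from the counting or from the tissue was not tested.

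Per unit of gene length, Dbp and the REV-ERB genes stood at the top and Npas2 at the bottom. Mean deposited FPKM (fragments scaled to gene length and library size) over the 12 libraries was 82.4 ± 15.4 (SD) for Dbp, a PAR bZIP factor that carries the clock's output to other genes. It was 62.7 ± 9.67 for Nr1d1 and 49.6 ± 7.73 for Nr1d2. Each of these neighbours overlapped in range, although Dbp was above Nr1d1, and Nr1d1 above Nr1d2, in 11 of 12 libraries. Nr1d2 was above Cry2, the next of the 10, in every library, but the highest Cry2 value (36.1) passed the lowest Nr1d2 value (32.4).

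The repressors came next. Cry2 stood at 26.7 ± 4.53 FPKM and was above Per1 in every one of the 12 libraries, although their ranges met. Per1 (19.0 ± 2.71), Clock (16.2 ± 1.29), Cry1 (15.4 ± 1.51) and Per3 (13.9 ± 2.30) formed a run in which each neighbour overlapped the next. Per2, at 5.05 ± 1.03 FPKM, lay below all of these in every library. Npas2 was at 0.748 ± 0.207 FPKM, from only 62 to 151 counts per library. Arntl, which encodes the partner of both CLOCK and NPAS2, was at 28.1 ± 2.95 FPKM and overlapped Cry2.

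**Figure D1:**
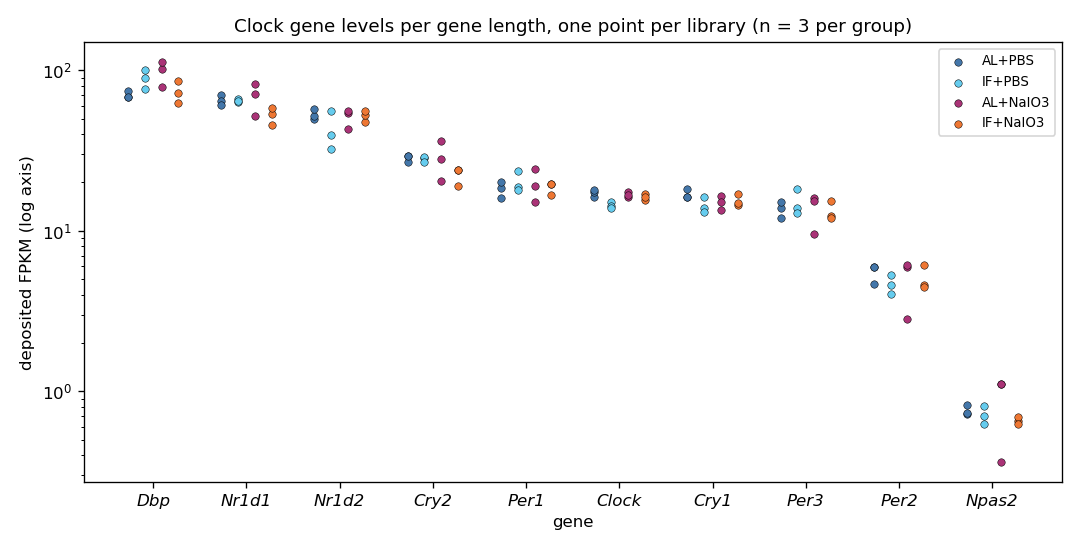
Deposited FPKM of each clock gene on a log axis, 1 point per library, coloured by group (3 libraries in each). Dbp, Nr1d1 and Nr1d2 lie at the top, Per2 lies below every other gene but Npas2, and Npas2 is the lowest in all 12 libraries.

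From here on levels are in CPM after TMM scaling (a library-size correction). Over all 12 mice the spread was below that of the median gene for 8 of the 10 clock genes and above it for Per2 and Npas2. The highest library was 1.33 times the lowest for Clock, 1.46 to 1.56 times for Per1, Cry1, Cry2, Nr1d1, Nr1d2 and Dbp, 1.78 times for Per3, 2.09 times for Per2 and 2.70 times for Npas2. The median over all tested genes was 1.86. This ratio also reflects how precisely a gene was measured, and Npas2 had only 62 to 151 counts per library. Between the highest and lowest of the 4 group means the ratio ran from 1.09 (Per1) to 1.29 (Dbp), and the median over all tested genes was 1.30.

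**Figure D2:**
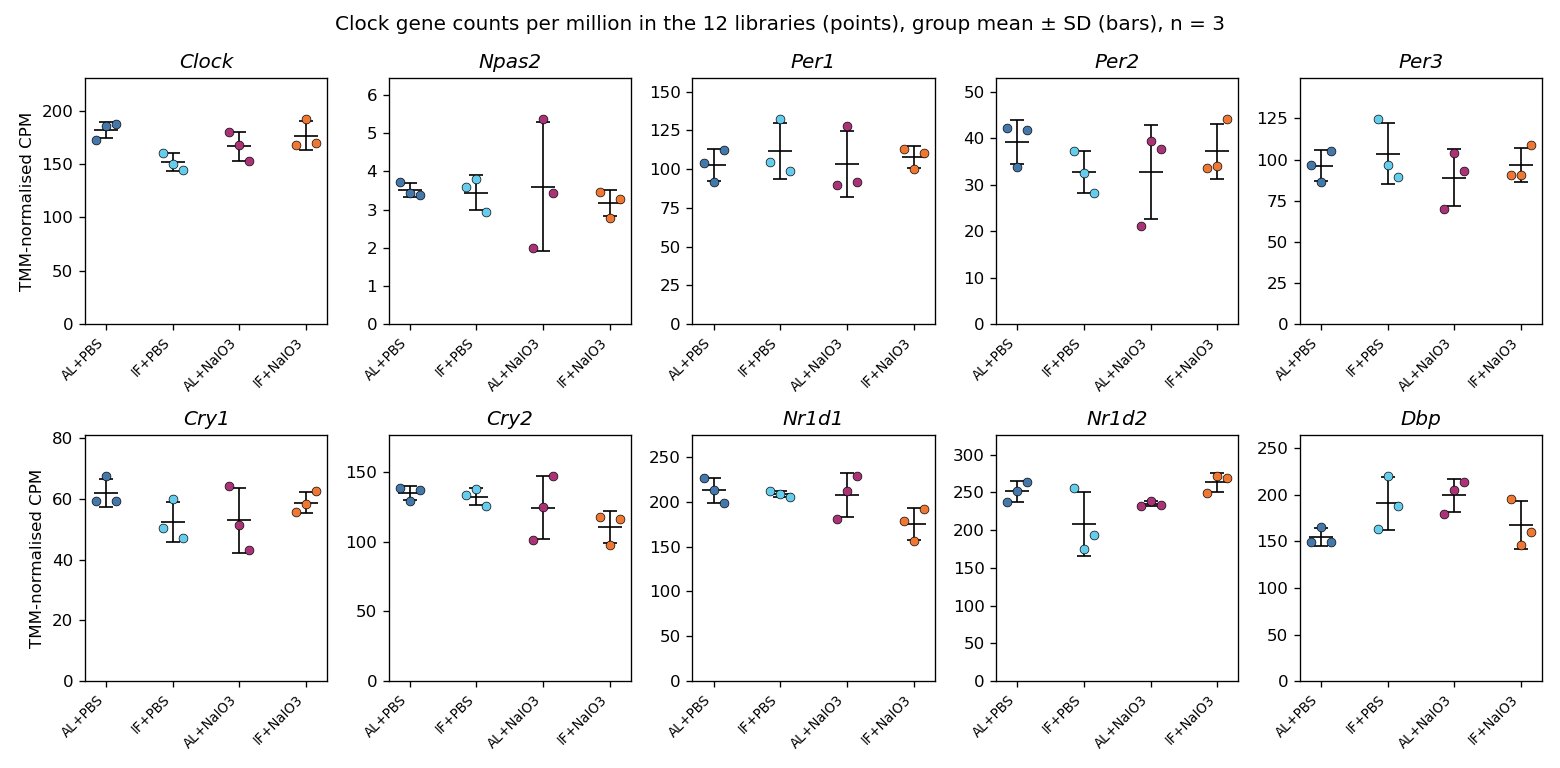
TMM-normalised CPM of the 10 clock genes in each library (points) with the group mean ± SD (bars, n = 3 mice); each vertical axis starts at 0. Clock is lower in all 3 IF + PBS libraries than in all 3 AL + PBS libraries, and the widest scatter for Npas2 and Per2 is within AL + NaIO3.

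Stretches before the annotated transcription starts are shown because they hold the letters through which the loop is known to act. They were read from the RefSeq promoter table (GRCm38.p6), which held 9 of the 10 clock genes in 12 windows. Per2 had no window there and was not searched. The 250 bases before each start were searched on both strands for the E-box CACGTG and its variant CACGTT, which CLOCK and BMAL1 bind, the D-box TTATGTAA or TTACGTAA, which DBP binds, the REV-ERB and ROR element TAGGTCA or TGGGTCA, and the cyclic AMP element TGACGTCA. None of these motifs overlaps another in the stretches shown. Capitals mark a match, AACGTG is CACGTT read on the other strand, and each line runs 5′ to 3′ in the direction of the gene.
Per1, chr11:69098771-69098800, plus strand: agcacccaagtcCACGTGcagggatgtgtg
Cry1, chr10:85185106-85185135, minus strand: gaAACGTGaggtgccggtggtCACGTGggg
Cry2, chr2:92434218-92434247, minus strand: acacatggtgggAACGTGagggggcggagc
Nr1d1, chr11:98775388-98775417, minus strand: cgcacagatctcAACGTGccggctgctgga
Per3, chr4:151044813-151044872, minus strand: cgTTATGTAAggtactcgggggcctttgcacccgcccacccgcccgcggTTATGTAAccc

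The E-box of Per1 begins 166 bases before its start, and Cry1 carries both forms, 79 and 60 bases before. The variant in Cry2 begins 166 bases before the start and that in Nr1d1 28 bases before. Per3 holds 2 D-boxes, 205 and 158 bases before its start. Of all 32851 promoter windows of the same length, 6.02% held CACGTG, 3.85% held CACGTT, 0.931% a D-box, 5.38% the REV-ERB and ROR element and 1.55% the cyclic AMP element. The windows of Clock, Npas2, Nr1d2 and Dbp held none of these letters, and no clock gene window held the last 2 motifs. The Per1 stretch lies inside the gene's interval in the count table (chr11:69095217-69109960), since that annotation starts further upstream.

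The first comparison asked what alternate-day fasting alone did, IF + PBS against AL + PBS. None of the 10 clock genes was called by edgeR's quasi-likelihood test, at a Benjamini-Hochberg adjusted p under 0.05 and a fold of at least 1.5. The background was the same, since 0% of the 15361 genes tested were called, so this count is not a result about clock genes. At an unadjusted p under 0.05 there were 2 clock genes, against 17.1% of all genes, and DESeq2 called no clock gene either, against 1.25% of all genes fitted. The size of the differences was that of the background, with a median absolute log2 fold change of 0.18, against 0.17 over all genes. All 10 clock genes had a 95% interval of the log2 fold change that lay within 1.5-fold either way, against 59.6% of all genes. This count, here and in the comparisons that follow, also reflects how precisely a gene was measured.

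Clock, the DNA-binding activator of the loop (chr5:76209868-76304792), measured 173, 186 and 187 CPM in the 3 AL + PBS mice and 161, 150 and 144 CPM in the 3 IF + PBS mice. The groups did not overlap, as for 21.9% of all genes tested, and Clock was the only one of the 10 so separated. The log2 fold change was -0.26 ± 0.09 (SE), with an unadjusted p of 0.0127 and an edgeR adjusted p of 0.208. An exact permutation test gave p = 0.10, two-sided, the smallest that 3 mice against 3 allow.

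Dbp (chr7:45705088-45710203) pointed the other way. It measured 150, 165 and 149 CPM in AL + PBS and 164, 220 and 188 CPM in IF + PBS. The lowest fasted mouse lay just below the highest fed mouse. The log2 fold change was 0.30 ± 0.11 (edgeR, unadjusted p = 0.0232, adjusted p = 0.241).

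The summed levels of cell type markers differed between these groups too. Of 10 marker lists, 8 had sums that did not overlap between IF + PBS and AL + PBS. Among single genes, 21.9% did not overlap. RPE markers (2250 to 2776 CPM against 2012 to 2173) and inner retina markers were higher in all 3 fasted mice. Stroma (64.7 to 120 CPM against 141 to 216), muscle (17.8 to 86.2 against 117 to 260.0), cornea (8.83 to 24.4 against 40.8 to 82.7), erythrocyte (41.6 to 57.2 against 65.2 to 84.9), rod and lens markers were lower in all 3. The part of these levels in the Clock and Dbp differences was not tested.

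The comparison depended on single IF + PBS libraries. Without replicate 2, the log2 fold change was 0.19 for Dbp (unadjusted p = 0.0996) and -0.16 for Nr1d2 (unadjusted p = 0.231, against -0.27 with all libraries). Without replicate 1, edgeR's adjusted p was 0.0342 for Clock (log2 fold change -0.30), 0.0156 for Nr1d2 (-0.45) and 0.0250 for Dbp (0.40). These 3 genes then passed the adjusted p but not the fold of 1.5, against 11.4% of all 15602 genes tested in that fit that passed the adjusted p.

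These differences ran with GC content. Clock and Nr1d2 have the lowest GC content of the 10 (41.5% and 42.1%) and Dbp the highest (61.1%, above 97.7% of tested genes). Across all genes the median log2 fold change was -0.155 in the 20% of genes lowest in GC content and 0.161 in the 20% highest. The gap in log2 CPM between genes high and low in GC content was 0.04 in IF + PBS replicate 1, and 0.45 and 0.27 in replicates 2 and 3. With library offsets corrected for GC content, a setting chosen after seeing the data, the Clock difference was -0.08 (unadjusted p = 0.338) and that of Dbp 0.10 (unadjusted p = 0.274). That of Nr1d2 was then -0.13 (edgeR, unadjusted p = 0.245). Other clock genes moved away from 0, Nr1d1 from -0.03 to -0.17 (unadjusted p = 0.0648), Cry2 from -0.03 to -0.14 (unadjusted p = 0.101) and Npas2 from -0.03 to -0.10. In the same fit Per2 had a log2 fold change of -0.35 (edgeR, unadjusted p = 0.0252, adjusted p = 0.291). Neither the part of GC content nor that of the marker levels in these differences was tested, and both moved with the same groups.

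Among the repressors, Per2 (chr1:91415982-91459324), which also integrates light and metabolic signals, measured 42.3, 33.7 and 41.7 CPM in AL + PBS and 37.2, 32.6 and 28.2 CPM in IF + PBS. The groups overlapped, and the log2 fold change was -0.26 ± 0.13 (-0.16 without IF + PBS replicate 3). Cry1 (chr10:85131700-85185064), the stronger repressor of the pair of cryptochromes in many tissues, stood at 59.3, 67.4 and 59.2 CPM in AL + PBS and at 50.5, 59.9 and 47.0 CPM in IF + PBS. Its log2 fold change was -0.24 ± 0.11, again with overlap. Per1 and Per3 were at 0.12 ± 0.13 and 0.11 ± 0.13, and Cry2 was at -0.03 ± 0.08, the narrowest interval together with Nr1d1.

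The 2 REV-ERB genes differed in scatter. Nr1d1 (chr11:98767932-98775333) measured 226, 213 and 199 CPM in AL + PBS and 212, 208 and 205 CPM in IF + PBS, a log2 fold change of -0.03 ± 0.08. Nr1d2 (chr14:18204054-18239127) measured 237, 253 and 264 CPM in AL + PBS and 256, 175 and 194 CPM in IF + PBS. IF + PBS replicate 1 lay among the fed mice and the other two lay below them. Npas2 (chr1:39193731-39363236) stood at 3.37 to 3.72 CPM in AL + PBS and 2.94 to 3.81 CPM in IF + PBS.

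The second comparison asked the same of injected mice, IF + NaIO3 against AL + NaIO3. Again 0 of 10 clock genes were called, against 0.0383% of the 15648 genes tested, and DESeq2 called none (3.05% of all genes). No clock gene had an unadjusted p under 0.05 (11.7% of all genes did). The interval lay within 1.5-fold for 7 of the 10, against 37.6% of all genes. The median absolute log2 fold change was 0.17, against 0.21 over all genes.

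Nr1d2 was the only clock gene whose groups did not overlap here, as for 18.9% of all genes. It measured 232, 239 and 234 CPM in AL + NaIO3 and 249, 271 and 270 CPM in IF + NaIO3. All 3 fasted mice were higher, by a log2 fold change of 0.16 ± 0.12 (edgeR, unadjusted p = 0.230, adjusted p = 0.629, exact permutation p = 0.10). With the GC correction the Nr1d2 difference was 0.08 (edgeR, unadjusted p = 0.515). The macrophage and microglia markers did not overlap between these groups either, at 34.4 to 47.8 CPM in IF + NaIO3 against 80.3 to 214 CPM, and their part in this difference was not tested. Dbp measured 180, 205 and 214 CPM in AL + NaIO3 and 196, 146 and 160 CPM in IF + NaIO3. Its log2 fold change was -0.26 ± 0.15, and IF + NaIO3 replicate 1 lay among the fed mice. Nr1d1 stood at 180, 212 and 228 CPM against 179, 157 and 192 CPM, a log2 fold change of -0.24 ± 0.15 with overlap (-0.16 without IF + NaIO3 replicate 2).

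The 2 genes with the widest intervals, Npas2 and Per2, depended on single AL + NaIO3 libraries. Per2 measured 21.1, 39.5 and 37.7 CPM in AL + NaIO3, where replicate 1 was the lowest of all 12 libraries, and 33.6, 33.9 and 44.1 CPM in IF + NaIO3. Its log2 fold change of 0.18 ± 0.25 was -0.05 without that replicate. Npas2 stood at 1.99, 5.36 and 3.44 CPM in AL + NaIO3, which holds both its lowest library and its highest, replicate 2, the one high in cornea markers, and at 3.45, 2.78 and 3.27 CPM in IF + NaIO3. The part of the cornea markers in the Npas2 value was not tested. The log2 fold change of -0.19 ± 0.41 became -0.47 without AL + NaIO3 replicate 1 and 0.22 without replicate 2. For Dbp, leaving out AL + NaIO3 replicate 3, the library with few rod transcripts, gave -0.21, and leaving out other single libraries gave values from -0.39 (IF + NaIO3 replicate 1) to -0.17 (IF + NaIO3 replicate 2).

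Averaged over both injections, with 6 fasted against 6 fed mice, the diet differences of the clock genes were small. None of the 10 was called (0.225% of the 15970 genes tested were), none had an unadjusted p under 0.05 (16.1% of all genes did), and DESeq2 called none (2.45% of all genes). For 9 of the 10 the interval lay within 1.5-fold, against 62.6% of all genes, and Npas2 was the exception with -0.59 to 0.39. The median absolute log2 fold change was 0.09, against 0.15 over all genes. Clock, Per2, Cry1, Nr1d2 and Dbp had opposite signs after PBS and after NaIO3, so their differences partly cancel in the average. For Dbp they were 0.30 and -0.26. The lowest value was that of Nr1d1 at -0.13 ± 0.08, with an interval from -0.30 to 0.05 (edgeR, unadjusted p = 0.142, adjusted p = 0.453). The highest was that of Per3 at 0.12 ± 0.11, from -0.13 to 0.36. With a library left out, Per3 ran from 0.035 (without IF + PBS replicate 1) to 0.175 and Nr1d1 from -0.179 to -0.095. Clock was at -0.08 ± 0.07 and Dbp at 0.03 ± 0.10. With offsets corrected for GC content Nr1d1 was at -0.17 (edgeR, unadjusted p = 0.0284, adjusted p = 0.237).

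**Figure D3:**
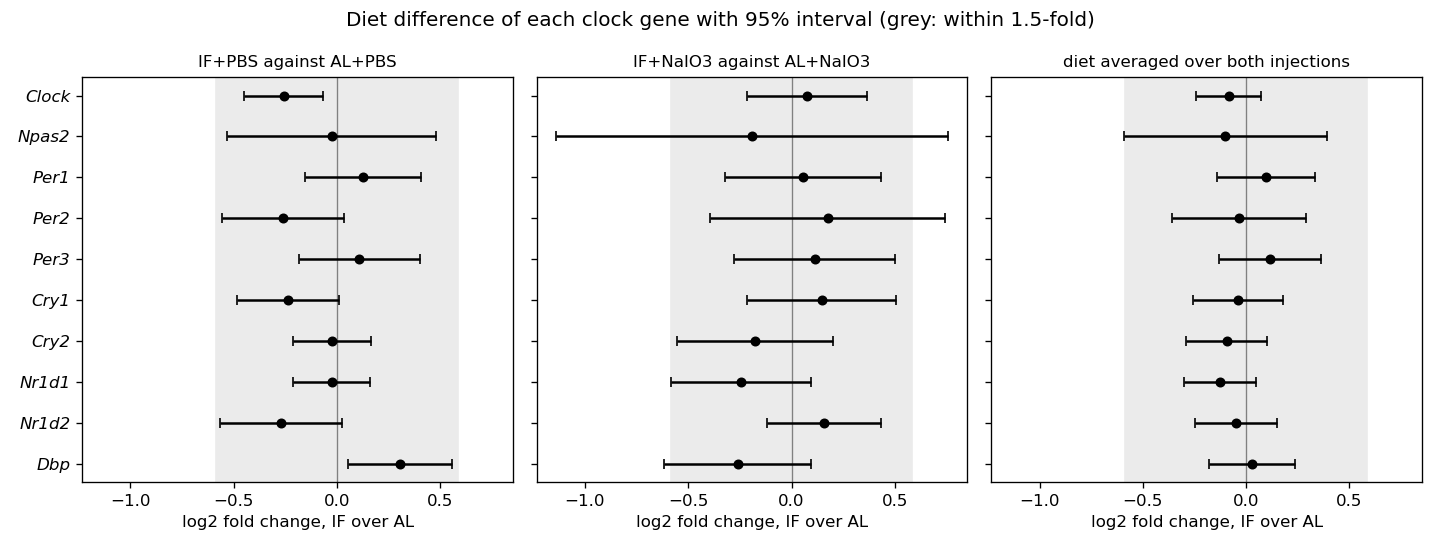
Log2 fold change of each clock gene, IF over AL, with its 95% interval from edgeR in PBS-injected mice, in NaIO3-injected mice (3 against 3 each) and averaged over both (6 against 6); grey marks differences within 1.5-fold. The averaged values run from -0.13 (Nr1d1) to 0.12 (Per3), and the interval of Npas2 reaches outside the grey band in the centre and right panels.

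Whether the diet difference itself changed with the injection was tested as an interaction. No clock gene was called, at an adjusted p under 0.05 (0.0313% of the 15970 genes were), while 3 had an unadjusted p under 0.05 against 12% of all genes, and DESeq2 called none (1.36% of all genes). Dbp had the largest of the 10, at -0.55 ± 0.19 on the log2 scale (edgeR, unadjusted p = 0.0135, adjusted p = 0.331). Fasted mice averaged 191 ± 28.1 CPM against 155 ± 9.27 in fed mice after PBS, and 167 ± 25.6 against 199 ± 17.7 after NaIO3. Per2 (0.45 ± 0.30, unadjusted p = 0.153), Nr1d2 (0.44 ± 0.19), Cry1 (0.40 ± 0.20, unadjusted p = 0.0738) and Clock (0.35 ± 0.15) ran the other way. Dbp, Nr1d2 and Clock are again the extremes of GC content, and the medians of the 20% of all genes lowest and the 20% highest in GC content were 0.208 and -0.215. After the GC correction Dbp was at -0.31 (unadjusted p = 0.0457, adjusted p = 0.483), Nr1d2 at 0.21, Cry1 at 0.37 and Clock at 0.10, while Per2, at 0.59 (unadjusted p = 0.0599), was then the largest of the 10. The Per2 value rested on AL + NaIO3 replicate 1, since before the correction it was 0.21 without that library. That of Cry1 was 0.26 without AL + NaIO3 replicate 3. Only 4 of 10 intervals lay within 1.5-fold, against 23.3% of all genes.

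The injection comparisons share their libraries with the diet comparisons and are given for the same members. In ad libitum mice, AL + NaIO3 against AL + PBS, 0 of 10 clock genes were called by edgeR (0.0769% of 15612 genes) or DESeq2 (2.63%). Dbp alone had an unadjusted p under 0.05 (10.2% of genes), and alone had groups that did not overlap (18.1% of genes). Its 3 AL + NaIO3 mice, at 180, 205 and 214 CPM, were all above the AL + PBS mice (highest 165), with a log2 fold change of 0.37 ± 0.12 (edgeR, unadjusted p = 0.0167, adjusted p = 0.357; exact permutation p = 0.10). The value was 0.35 after the GC correction and 0.31 without AL + NaIO3 replicate 3. The macrophage and RPE marker levels given above moved with the same groups, and their part in this difference was not tested. Of the 10 intervals, 6 lay within 1.5-fold, against 42.1% of all genes.

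In fasted mice, IF + NaIO3 against IF + PBS, again 0 of 10 were called, 0% of 15305 genes were, and DESeq2 called no clock gene (0.47% of all genes). An unadjusted p under 0.05 was reached by 4 clock genes, against 15.2% of genes, and 3 (Clock, Cry2 and Nr1d1) had groups that did not overlap, against 20.9% of genes. Intervals lay within 1.5-fold for 8 of the 10, against 57.7% of all genes. Clock was at 0.22 ± 0.10, Nr1d2 at 0.34 ± 0.13, Cry2 at -0.26 ± 0.10 and Nr1d1 at -0.25 ± 0.10. Without IF + PBS replicate 1, Nr1d2 was at 0.52 with an edgeR adjusted p of 0.0323, which 2.95% of all genes passed in that fit. The medians of the 20% of genes lowest and the 20% highest in GC content were 0.21 and -0.17, and after the GC correction these 4 genes were at -0.02, 0.15, -0.12 and -0.08, with no clock gene under an unadjusted p of 0.05. Of the 10 marker lists 4 did not overlap between these groups, with RPE markers lower in IF + NaIO3 (1178 to 2058 CPM) and rod, cornea and erythrocyte markers higher, and their part in these differences was not tested.

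**Figure D4:**
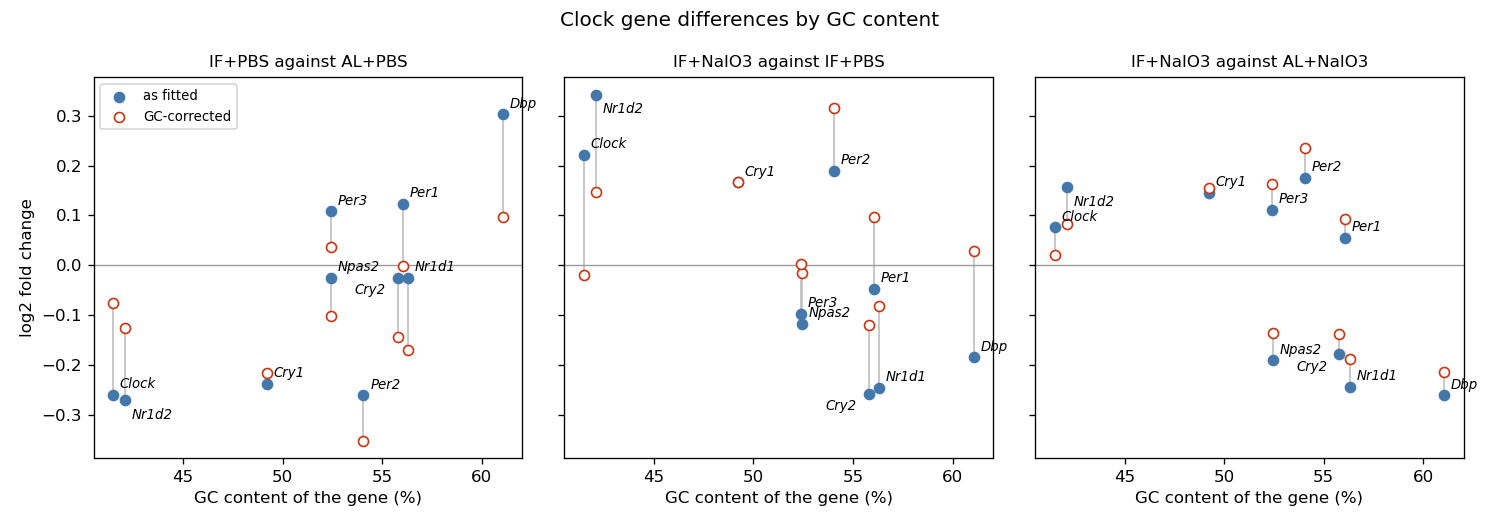
Log2 fold change of each clock gene against the GC content of its transcripts in 3 comparisons, as fitted (filled) and with GC-corrected library offsets (open), joined by a line. Clock, Nr1d2 and Dbp, at the ends of the GC range, move towards 0 in all 3 panels, while Per2 moves away from 0 in all 3 and Nr1d1, Cry2 and Npas2 move away from 0 in the left panel.

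The other genes of the clock, 20 in a list that covers partners, receptors, repressors, kinases, ubiquitin ligases and outputs, were all tested and edgeR called none in any of the 6 comparisons. DESeq2 called 1 of them, Rorb, in IF + NaIO3 against AL + NaIO3 (3.05% of all genes), in AL + NaIO3 against AL + PBS (2.63%) and in the interaction (1.36%), and none in the other 3. An unadjusted p under 0.05 in edgeR was reached by 5 of 20 in IF + PBS against AL + PBS (17.1% of all genes), by 2 in IF + NaIO3 against AL + NaIO3 (11.7%) and by 1 in the averaged diet comparison (16.1%), shares too near the background to say anything of the list, with a median log2 fold change of -0.02 there against -0.01 over all genes. Arntl measured 93.5, 92.7 and 93.9 CPM in AL + PBS and 98.8, 74.7 and 84.8 CPM in IF + PBS. It was at -0.11 ± 0.11 after PBS and 0.21 ± 0.17 after NaIO3. With a library left out these ran from -0.227 to -0.021 and from 0.044 to 0.364. Averaged over both injections Arntl was at 0.06 ± 0.11. Its relative Arntl2 was at 0.12 ± 0.17 averaged (0.006 to 0.186 with a library left out).

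The gene of the list with the largest averaged diet difference was Usp2, a clock-controlled deubiquitinase. It measured 151, 137 and 157 CPM in AL + PBS and 197, 207 and 171 CPM in IF + PBS, then 153 and 182 CPM in AL + NaIO3 replicates 1 and 2 and 245, 193 and 183 CPM in IF + NaIO3. AL + NaIO3 replicate 3, the library low in rod and high in stroma markers, was the lowest of all 12 (3723 counts), which put the mean of its group at 145 ± 41.5 CPM (SD, n = 3). Every fasted mouse was above every fed mouse of its injection. The averaged log2 fold change was 0.45 ± 0.13 (edgeR, unadjusted p = 0.00511, adjusted p = 0.134), and the exact permutation p within injections was 0.005, the smallest that this design allows. Without AL + NaIO3 replicate 3 the difference after NaIO3 was 0.30, against 0.51 with it, and the averaged one 0.34. The marker levels given above moved with the same groups, and their part was not tested. The averaged value was 0.41 after the GC correction, and DESeq2's adjusted p was 0.0337 at 0.44, under the fold of 1.5. Usp2 was named for this difference, so the value describes it and is not an independent test.

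The other genes with the largest averaged difference of their role were closer to 0 or scattered. Nfil3, which competes with DBP for D-boxes, was at 0.16 ± 0.10, Bhlhe40, a repressor at E-boxes, at -0.22 ± 0.12 (-0.10 without AL + NaIO3 replicate 3), and Fbxl21, a ubiquitin ligase for cryptochromes, at -0.24 ± 0.29. Rorb, a receptor that opposes REV-ERB and is needed for rod development, was at 0.19 ± 0.13 averaged, but at -0.39 ± 0.12 after PBS and 0.76 ± 0.22 after NaIO3. The averaged value ran from 0.095 (without AL + NaIO3 replicate 3) to 0.260 with a library left out. With the GC correction Rorb was at -0.24 after PBS and 0.69 after NaIO3. Its interaction was 1.15 ± 0.27 (edgeR, unadjusted p = 0.000857, adjusted p = 0.201), and edgeR's adjusted p was 0.0382 without AL + NaIO3 replicate 1. DESeq2's adjusted p was 0.0284 for the difference after NaIO3, a call kept in 2 of 6 fits that left out a library, and 0.00427 for the interaction, kept in 12 of 12. Rorb was lowest in AL + NaIO3 replicate 3 (229 CPM), the library lowest in rod markers, and the part of rod content in its difference was not tested. Without that library its NaIO3 diet difference was 0.57. Of 8 glucocorticoid response genes, a second route by which fasting can reach clock genes, edgeR called none in any comparison. DESeq2 called 1 of them, Cdkn1a, in AL + NaIO3 against AL + PBS at a log2 fold change of 1.31 (adjusted p = 0.0188), where it called 2.63% of all genes. Cdkn1a, a cell cycle inhibitor, measured 5.39, 7.03 and 12.2 CPM in AL + NaIO3, highest in replicate 3, and 3.11, 3.40 and 3.47 CPM in AL + PBS. Without that replicate it was at 0.90 (DESeq2, adjusted p = 0.0622), and the call held in 2 of 6 fits that left out a library. The macrophage and RPE markers moved with the same groups, and their part was not tested. An unadjusted p under 0.05 in edgeR was reached by 2 of the 8 in IF + PBS against AL + PBS (17.1% of all genes), 2 in IF + NaIO3 against AL + NaIO3 (11.7%), 1 averaged (16.1%), 1 in AL + NaIO3 against AL + PBS (10.2%), 0 in IF + NaIO3 against IF + PBS (15.2%) and 2 in the interaction (12%).

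No pair of clock genes varied together between mice of the same group beyond the adjusted threshold. With group means removed, 26 of the 45 pairs correlated positively and 19 negatively over the 12 libraries. None of the 45 passed a Benjamini-Hochberg adjusted p of 0.05 in an exact permutation test within groups, and 5 had an unadjusted p under 0.05. Per2 and Per3 were the closest pair, with Pearson's r = 0.93 (permutation p = 0.00231, adjusted 0.104) and Spearman's rho = 0.91 (permutation p = 0.00231). Without the 2 libraries farthest from the median of Per2, AL + NaIO3 replicates 1 and 2, r was 0.88, and after GC correction it was 0.91 (permutation p = 0.000772, adjusted 0.0347).

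Cry2 and Nr1d1 followed, with r = 0.86 (permutation p = 0.0255, adjusted 0.320) and rho = 0.78 (permutation p = 0.0270), and r was 0.71 without AL + NaIO3 replicates 1 and 3. Clock ran against both, at r = -0.79 with Nr1d1 (permutation p = 0.0293, adjusted 0.320; rho = -0.72, permutation p = 0.0455) and r = -0.77 with Cry2 (permutation p = 0.0448, adjusted 0.320; rho = -0.70, permutation p = 0.0463). Without the 2 farthest libraries these were -0.65 and -0.59. After GC correction they were -0.63 and -0.29. Npas2 and Per2 reached r = 0.80 (permutation p = 0.0463, adjusted 0.320; rho = 0.58, permutation p = 0.138), but 0.47 without AL + NaIO3 replicates 1 and 2.

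**Figure D5:**
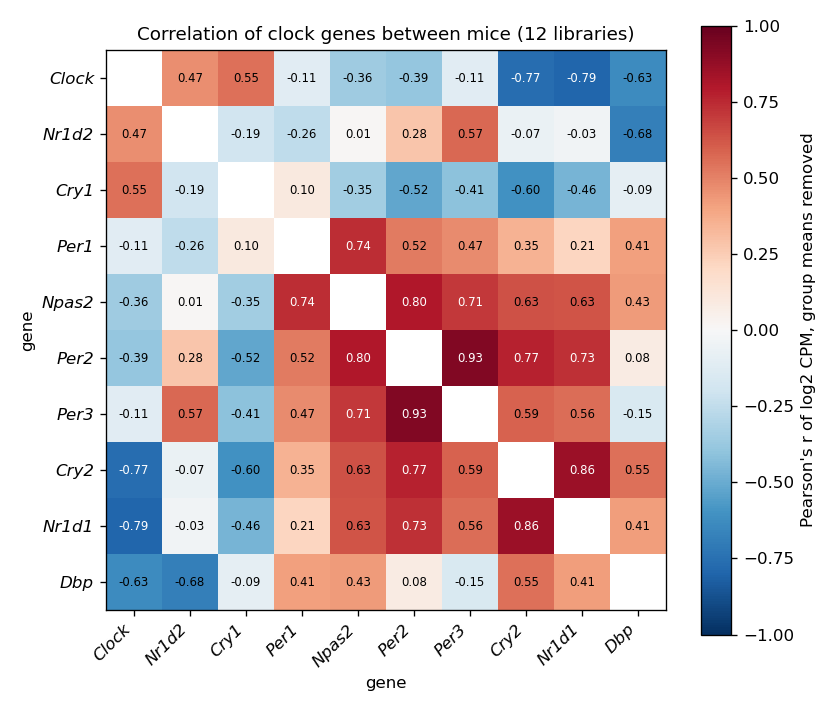
Pearson's r of log2 CPM between clock genes over the 12 libraries after removing group means, written in each cell and coloured from -1 to 1. Per2 with Per3 (0.93) and Cry2 with Nr1d1 (0.86) are the highest, and Clock with Nr1d1 (-0.79) is the lowest.

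Over the 12 libraries without removing group means, the genes most like Dbp were Capns1 (r = 0.98), Gnb2 (0.95), Plekho1 (0.93), Syngr3 (0.92) and Marcksl1 (0.91), none of them a clock gene. All 5 lay above at least 85.6% of tested genes in GC content. Those most like Npas2 were Hyal3 (0.91), Ajm1 (0.90), Grin2b (0.89), Duxbl2 (0.88) and Dhx33 (0.88). The 4 of these with a GC value ranged from above 29.5% to above 98.3% of tested genes. Such lists were picked as the highest of 15970 genes and carry no test.

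Counts of 3 members can hold reads of a neighbour. By the deposited coordinates, Nr1d1 shares 1075 bases with Thra, Dbp 737 bases with Sphk2, and the whole of Per3 (chr4:151003652-151044665) lies inside Camta1. The kit keeps strand, but whether the counting used it is not given in the sources used here.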

How the data were processed

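RNA from eye cup was sequenced in 12 libraries, 3 mice per group, and groups were taken from the labels. The authors deposited whole-number counts per gene and FPKM values per gene, the latter normalised by them to gene length and library size. Their processing notes name HISAT2, StringTie, DESeq2 and edgeR and the build GRCm39, yet the deposited coordinates matched RefSeq GRCm38.p6 for 99.9% of comparable genes and GRCm39 for 16.4%, so GRCm38 was used. Another table held the authors' own IF + NaIO3 against AL + NaIO3 comparison and was not used.

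Counts were tested in edgeR 4.0.16 (R 4.3.3; TMM, filterByExpr, quasi-likelihood), with Benjamini-Hochberg adjustment over all genes tested. Pairs of groups were fitted on 6 libraries, and the averaged diet and interaction contrasts on 12. Log2 CPM used a prior count of 2. Single genes were tested by exact permutation and correlations by all 1296 arrangements within groups. GC correction subtracted library medians in 20 GC bins. FPKM levels were not tested. Replicate libraries differed beyond counting noise, and p-values measure the spread between these mice. The edgeR fits were tested on simulated counts with known changes. Those counts held none of the GC gaps or marker differences between libraries described above, and are no check on them. All members were named, as were Arntl and the gene of each other role with the largest averaged diet difference. The members and lists were chosen with earlier results of these data known. Alternatives were DESeq2 1.42.0, upper quartile scaling, no filter, at least 10 counts per library, a replicate block, 12 libraries in 1 fit, an additive model, no fold minimum, CPM per transcript length and leaving out each library.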

Additional observations from a re-analysis of the deposited data

How the results depend on the processing

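No clock gene was called in any of the 100 counts of called members, over the 6 comparisons and the alternatives listed. Leaving out each library and also dropping the fold minimum, chosen after seeing the data, gave 0 to 3 clock genes in IF + PBS against AL + PBS (Clock, Nr1d2 and Dbp without IF + PBS replicate 1), 0 to 1 in IF + NaIO3 against IF + PBS (Nr1d2 without the same library) and 0 in the other pairs and the averaged comparison. Of 597 log2 fold changes under alternatives other than leaving out a library, 15 changed sign, and of 696 with a library left out, 52 did. The number of all genes called depended on the tool and samples, and the cause was not tested. DESeq2 called 192 genes in IF + PBS against AL + PBS, 478 in IF + NaIO3 against AL + NaIO3, 391 in the averaged diet comparison, 411 in AL + NaIO3 against AL + PBS, 72 in IF + NaIO3 against IF + PBS and 217 in the interaction. Without a filter on low counts 16 genes were called in IF + NaIO3 against AL + NaIO3, 19 in AL + NaIO3 against AL + PBS, 2 in IF + NaIO3 against IF + PBS and 13 in the interaction. One fit of 12 libraries gave 190 in IF + NaIO3 against AL + NaIO3 and 177 in AL + NaIO3 against AL + PBS, and the additive model gave 0 in the averaged comparison.

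Same-numbered libraries correlated at -0.10 to 0.14 in their deviations from group means, and replicate numbers were not used to pair the samples. Whether same-numbered mice shared a day or hour of collection is not given in the sources used here. A replicate block gave 5 genes in IF + PBS against AL + PBS, 28 in IF + NaIO3 against AL + NaIO3, 28 in AL + NaIO3 against AL + PBS and 8 in the interaction, and turned Npas2 to -0.063 and Per1 to -0.001 in AL + NaIO3 against AL + PBS.

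With GC-corrected offsets, chosen after seeing the data, values changed sign for Per1 (-0.001), Nfil3 (-0.033), Bhlhe40 (-0.056) and Fbxl21 (0.071) in IF + PBS against AL + PBS, for Dbp (-0.052) in the averaged diet comparison, for Clock (-0.019), Per1 (0.097), Per3 (0.002) and Dbp (0.029) in IF + NaIO3 against IF + PBS, and for Per1 (0.096) and Cry2 (0.007) in the interaction. Upper quartile scaling put Nr1d1 at 0.000 in AL + NaIO3 against AL + PBS and Per3 at -0.033 in the interaction. Of the 45 correlations, 1 passed the adjusted threshold without removing group means (Cry2 with Nr1d1) and 1 after GC correction (Per2 with Per3).

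Leaving out each library gave 1 to 472 genes called in IF + PBS against AL + PBS (472 without IF + PBS replicate 1), 0 to 75 in IF + NaIO3 against AL + NaIO3 (75 without AL + NaIO3 replicate 3), 6 to 203 averaged (203 without AL + NaIO3 replicate 2), 0 to 90 in AL + NaIO3 against AL + PBS (90 without AL + NaIO3 replicate 3), 0 to 197 in IF + NaIO3 against IF + PBS (197 without IF + PBS replicate 1) and 3 to 366 in the interaction (366 without AL + NaIO3 replicate 1).

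Signs of small differences also depended on single libraries. In IF + PBS against AL + PBS the ranges were -0.061 to 0.134 for Bhlhe40, -0.056 to 0.016 for Cry2, -0.325 to 0.186 for Fbxl21, -0.103 to 0.081 for Npas2, -0.070 to 0.021 for Nr1d1, -0.014 to 0.211 for Per1 and -0.048 to 0.209 for Per3. In IF + NaIO3 against AL + NaIO3 they were -0.163 to 0.198 for Arntl2, -0.674 to 0.036 for Fbxl21, -0.472 to 0.219 for Npas2, -0.028 to 0.245 for Per1, -0.051 to 0.337 for Per2 and -0.027 to 0.244 for Per3. Averaged over both injections they were -0.034 to 0.123 for Arntl, -0.111 to 0.036 for Cry1, -0.041 to 0.072 for Dbp, -0.395 to 0.006 for Fbxl21, -0.251 to 0.095 for Npas2, -0.143 to 0.000 for Nr1d2 and -0.159 to 0.036 for Per2. In AL + NaIO3 against AL + PBS they were -0.253 to 0.007 for Cry2, -0.365 to 0.321 for Npas2, -0.115 to 0.049 for Nr1d1, -0.171 to 0.098 for Per1 and -0.236 to 0.031 for Per3. In IF + NaIO3 against IF + PBS they were -0.129 to 0.090 for Per1 and -0.200 to 0.056 for Per3. In the interaction they were -0.446 to 0.246 for Npas2, -0.152 to 0.123 for Per1 and -0.136 to 0.165 for Per3. Of the 4 DESeq2 calls of Rorb and Cdkn1a, refitted without each library (chosen after seeing the data), that of Rorb in AL + NaIO3 against AL + PBS was kept in 3 of 6 fits and lost without each AL + PBS library. As CPM per kilobase of the longest GENCODE transcript in place of FPKM, Per1 was at 15.9, below Clock (17.1), and Arntl at 19.0, below Cry2 (30.2). The other 9 clock genes moved by less than 1 SD.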
